A study of Mus musculus with 29 samples.

Results

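The enzymes that build and break down glycogen were followed as 9 genes (Gys1, Gys2, Gbe1, Pygm, Pygl, Pygb, Ppp1r3c, Ppp1r3a and Ugp2), picked by symbol from a table of 24770 gene rows. All 9 had a row. The study compared calorie restriction (CR), treadmill exercise training (EX) and both together (CREX) with a sedentary control group, in brown adipose tissue (BAT) and in the gastrocnemius, a skeletal muscle (SkM) of the calf. All mice were male, wild-type (WT) C57BL/6J animals, 8 weeks old at the start of interventions that lasted 8 weeks. The control and EX mice ate ad libitum, the CR and CREX mice were brought down to 70% of the ad libitum intake, and the EX and CREX mice ran at 12 m/min for 1 h on 5 days a week. Every mouse was fasted for 6 h, and trained mice were killed 24 h after the last run. BAT came from 3 control, 4 CR, 4 EX and 4 CREX mice and SkM from 4 control, 3 CR, 4 EX and 3 CREX mice, with 1 RNA-seq library per sample. The labels do not say whether both tissues came from the same mice, and all p-values measure the spread between these libraries.

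Glycogen is a branched store of glucose. UDP-glucose, made by UDP-glucose pyrophosphorylase (Ugp2), is added to the growing chain by glycogen synthase (Gys1 in muscle and most tissues, Gys2 in liver), and the branching enzyme (Gbe1) makes the branch points. Glycogen phosphorylase releases glucose units again, and it has a muscle (Pygm), a liver (Pygl) and a brain (Pygb) isozyme, each named for a tissue in which it prevails. Ppp1r3c (PTG) and Ppp1r3a (GM, the form of striated muscle) are scaffolds that bring protein phosphatase 1 to glycogen, where it switches glycogen synthase on and phosphorylase off. Muscle burns its own glycogen during work, and brown fat keeps a store that it draws on during thermogenesis.

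The isozymes are products of separate genes, and their first 60 coding bases (GENCODE vM21 transcripts, build GRCm38) are shown because the serine codon in capitals is where each enzyme is switched by phosphorylation. In the phosphorylases it is codon 15, the target of phosphorylase kinase, and in the synthases it is codon 8, a site at which phosphorylation lowers activity, both counted from the start codon.
Pygm: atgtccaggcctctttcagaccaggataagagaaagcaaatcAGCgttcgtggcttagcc
Pygl: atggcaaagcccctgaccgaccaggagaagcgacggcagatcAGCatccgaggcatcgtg
Pygb: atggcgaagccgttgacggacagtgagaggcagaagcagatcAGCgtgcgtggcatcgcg
Gys1: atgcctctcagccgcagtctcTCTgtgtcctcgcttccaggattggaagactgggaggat
Gys2: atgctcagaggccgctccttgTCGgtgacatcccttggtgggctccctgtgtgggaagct

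Over their whole coding sequences Gys1 and Gys2 were identical at 69.4% of 2106 aligned bases. Pygm and Pygb were identical at 77.3%, Pygl and Pygb at 75.6% and Pygm and Pygl at 75.4%. The longest stretch shared base for base by any of these pairs was 62 bases, between Pygm and Pygb. The genes lie apart on the genome (GRCm38): Gys1 at chr7:45434844-45456619 (+ strand), Gys2 at chr6:142422613-142473109 (- strand), Gbe1 at chr16:70313949-70569716 (+ strand), Pygm at chr19:6384399-6398459 (+ strand) and Pygl at chr12:70190811-70231488 (- strand). Pygb lies at chr2:150786735-150831758 (+ strand), Ppp1r3c at chr19:36731731-36736653 (- strand), Ppp1r3a at chr6:14713977-14755274 (- strand) and Ugp2 at chr11:21321138-21371201 (- strand).

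The libraries held 21047242 to 24919377 counts in BAT and 23050918 to 23425284 in SkM. Levels are given as CPM, the usual share of a library's total count after TMM scaling over the libraries of a tissue, and 3 counts are 0.120 to 0.143 CPM in the BAT and 0.128 to 0.130 CPM in the SkM libraries before that scaling. Ucp1, the uncoupling protein of brown fat, reached 1373 to 4750 CPM in the BAT libraries and no more than 0.138 CPM in SkM, where Acta1, the skeletal muscle actin, reached 21534 to 45334 CPM. Some libraries carried RNA of other cells. The sum of 10 skeletal muscle markers was 3.22 to 52.4 CPM in 5 BAT libraries (control 2, control 3, CR 1, CR 2 and EX 4) and 631 to 5836 CPM in the other 10. Adipoq, an adipocyte hormone, stood at 9.92 to 14.8 CPM in 4 SkM libraries (CR 1, CR 3, EX 1 and CREX 1) and at 0 to 3.41 CPM in the other 10. Alb, the albumin gene of hepatocytes, stood at 27.9 to 153 CPM in SkM CR 1, CR 2, CR 3 and CREX 1 and at 0 to 3.21 CPM in the other SkM libraries. In BAT it read 51.4 CPM in CR 3, 38.9 CPM in EX 2 and 32.3 CPM in CREX 4, and 0 to 3.10 CPM elsewhere. Summed slow fibre markers were 18.6 and 78.0 CPM in SkM CREX 3 and CREX 2, against 322 CPM or more elsewhere in SkM. In bulk tissue, fewer cells of a type and less RNA per cell cannot be told apart.

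The main phosphorylase differed between the tissues, Pygl in BAT and Pygm in SkM, while Gys1 was the main synthase of both. Per kilobase of exon, the most abundant member in control BAT was the liver phosphorylase Pygl at 143 ± 16.9 CPM per kb (SD, n = 3), followed by Gys1 at 56.4 ± 1.75, Gbe1 at 47.9 ± 1.16 and Ugp2 at 39.3 ± 3.50. Ppp1r3c (28.3 ± 9.26), Pygb (20.7 ± 1.25) and Gys2 (18.8 ± 4.77) came next, and the libraries of Ppp1r3c overlapped those of Pygb, as those of Pygb did with those of Gys2. Pygm, at 4.87 ± 6.02 CPM per kb, and Ppp1r3a, at 0.07 ± 0.12, were last. In control SkM the order began with Pygm at 2491 ± 232 CPM per kb (SD, n = 4), Ugp2 at 218 ± 11.9 and Gys1 at 124 ± 14.0. Ppp1r3c (47.7 ± 9.32), Ppp1r3a (26.9 ± 2.85) and Gbe1 (11.7 ± 1.41) followed, and Pygb (0.92 ± 0.14), Pygl (0.23 ± 0.08) and Gys2 (0.06 ± 0.05) were lowest, with no overlap between neighbours in this order.

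**Figure D1:**
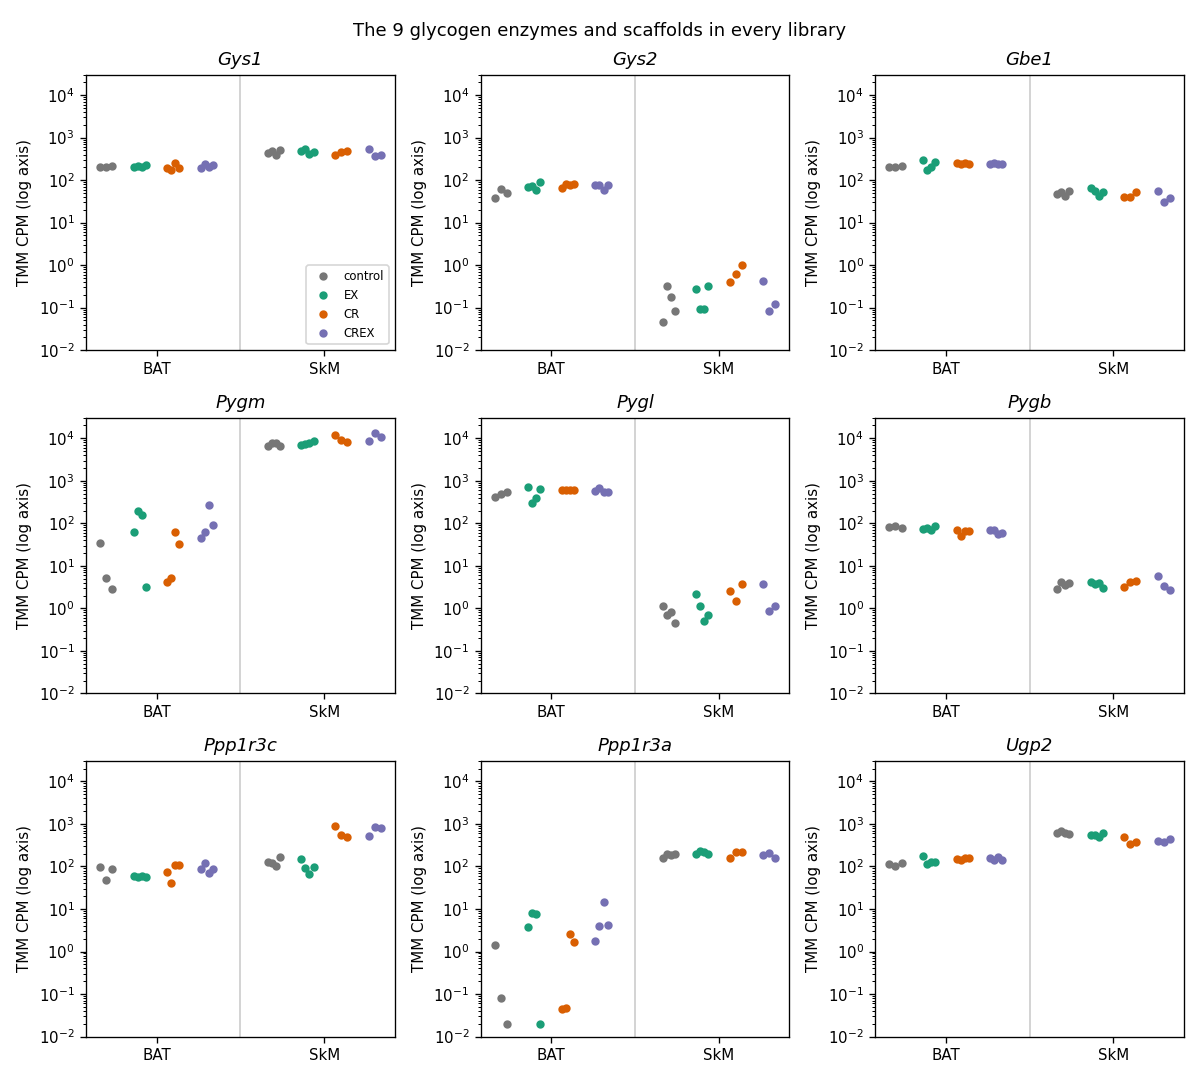
Level of each member in every library as TMM-scaled CPM on a log axis, with the BAT libraries left and the SkM libraries right of the grey line in each panel and 1 point per library, coloured by group. Libraries at 0 are drawn at 0.02 CPM, and Pygm, Ppp1r3a, Pygl, Gys2 and Pygb show the widest gaps between the tissues.

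All 9 members were called between control SkM and control BAT, which here needs both an edgeR p, adjusted by Benjamini-Hochberg, of less than 0.05 and a change of more than 1.5-fold, and so were 60% of the 13797 genes tested. Higher in SkM were the muscle phosphorylase Pygm (log2 fold change 9.28, SE (standard error) 1.29, edgeR adjusted p = 0.00098) and the muscle scaffold Ppp1r3a (8.84, 0.72, edgeR adjusted p = 5.56e-05). With each library left out in turn, Pygm ran from 8.79 to 11.1 and Ppp1r3a from 8.25 to 12.2. BAT control 1, which held 631 CPM of muscle markers, had the highest control values of BAT, 33.9 CPM of Pygm and 1.44 CPM of Ppp1r3a. Ugp2 (log2 fold change 2.75), Gys1 (1.41) and Ppp1r3c (1.03) were also higher in SkM. Lower in SkM were Pygl (log2 fold change -9.01, SE 0.20, edgeR adjusted p = 1.6e-11), Gys2 (-8.00), Pygb (-4.21) and Gbe1 (-1.75).

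As a share of the summed CPM per kb of both synthases, Gys1 made up 60.3% to 79.3% in the BAT libraries (median 69.2%) and at least 99.7% in every SkM library. Gys2, the liver synthase, thus held 20.7% to 39.7% of the synthase signal in BAT. Pygl made up 50.2% to 92.8% of the phosphorylase signal in BAT (median 83.8%), Pygb 5.23% to 13.2%, and Pygm 0.51% to 38.4%. In SkM, Pygm held at least 99.9%.

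**Figure D2:**
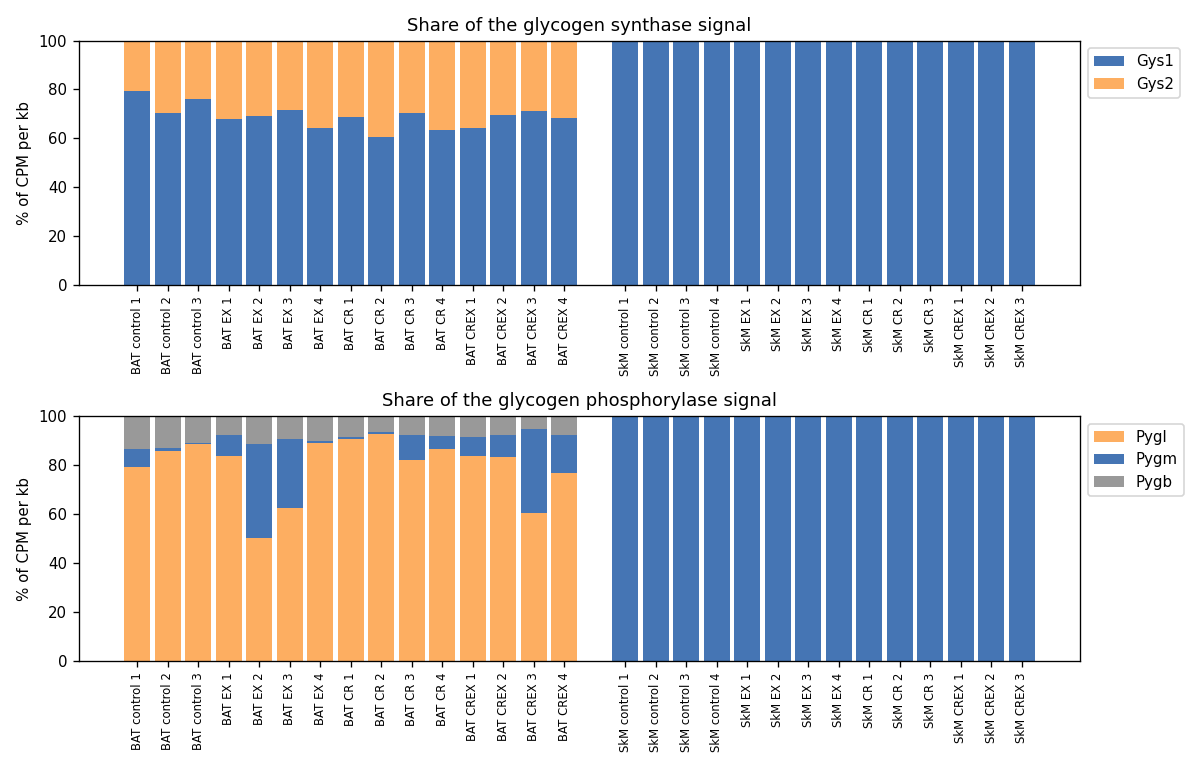
Share of each synthase gene (upper panel) and each phosphorylase gene (lower panel) in the summed CPM per kb of its family, in percent, with 1 stacked bar per library. Gys1 fills 60.3% to 79.3% of the BAT bars and nearly all of the SkM bars, and the Pygm share of BAT is widest in EX 2 and CREX 3.

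The Pygm share of BAT moved with the muscle markers. In the 5 BAT libraries with 3.22 to 52.4 CPM of muscle markers, Pygm stood at 2.81 to 5.27 CPM and Ppp1r3a at 0 to 0.08 CPM, at or under 2 counts. Pygm was 10.1% to 87.2% of the muscle marker sum in those 5 libraries. In the 10 others Pygm stood at 31.9 to 272 CPM, which was 4.17% to 5.54% of the muscle marker sum, and Ppp1r3a at 1.44 to 14.6 CPM. In SkM itself Pygm was 5.69% to 8.12% of that sum. Pygm read 272 CPM in CREX 3, 193 CPM in EX 2 and 155 CPM in EX 3, the BAT libraries with the most muscle markers.

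**Figure D3:**
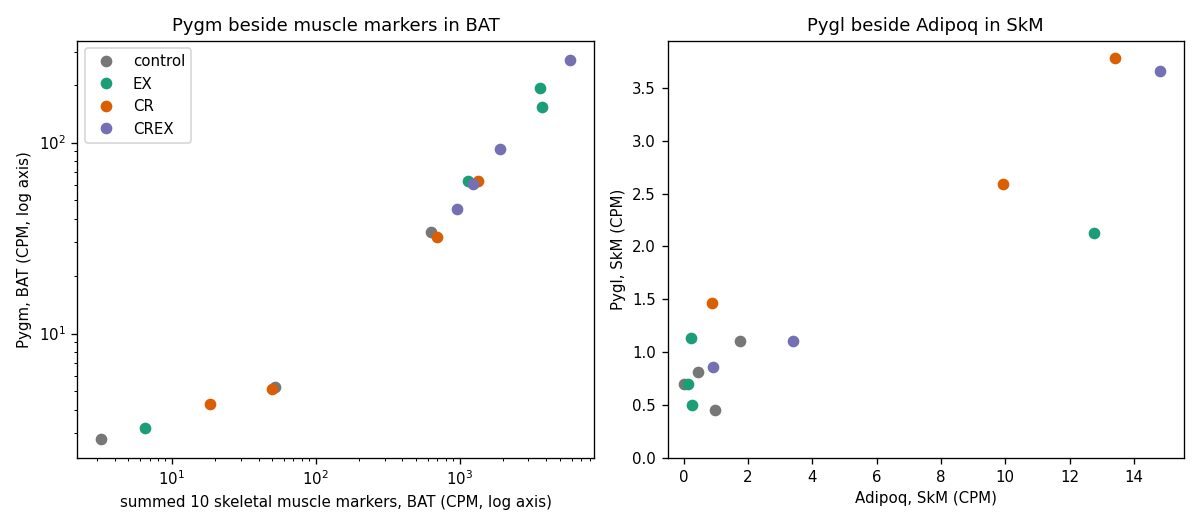
Left, Pygm against the summed 10 skeletal muscle markers in the 15 BAT libraries (both in CPM, log axes). Right, Pygl against Adipoq in the 14 SkM libraries (both in CPM, linear axes). Points are libraries coloured by group. Pygm lies at 2.81 to 5.27 CPM in the 5 BAT libraries with few muscle markers, and the highest Pygl values of SkM are in the libraries with the most Adipoq.

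In SkM, CR raised the phosphatase scaffold Ppp1r3c about 5-fold and lowered Ugp2, the enzyme that makes the glucose donor, about 1.5-fold, while synthase Gys1 and the branching enzyme did not pass the test. Of the 8 members tested between CR and control, 3 were called, Ppp1r3c and Pygl higher and Ugp2 lower, where 9.6% of 13173 genes were called (4.27% higher and 5.32% lower). The groups did not overlap for these 3 and Pygm, as for 27.5% of all genes. Gys2 was not tested in this contrast, because its 1 to 26 counts per library were under edgeR's filter. The sum of 5 endothelial markers was 132 to 176 CPM in the CR and 213 to 276 CPM in the control libraries, and its part in these values was not tested.

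Ppp1r3c stood at 130, 124, 102 and 163 CPM in the 4 control libraries and at 902, 555 and 500 CPM in the 3 CR libraries. Every CR library lay above every control library. The log2 fold change was 2.34 (SE 0.23, 95% interval 1.84 to 2.84, edgeR adjusted p = 0.00032), a 5.05-fold rise. Without any 1 library the log2 fold change stayed between 2.01 and 2.49. The call held with the adipocyte score as a covariate (2.17). Leaving out the libraries with Adipoq above 5 CPM kept CR 2 as the only CR library, and the log2 fold change was 2.10. The call also held with the hepatocyte score (3.54), but that score and the CR group cannot be told apart here.

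The same scaffold rose when restricted mice were compared within the trained groups. It was the 1 member called of 8 tested between CREX and EX, where 8.87% of 13112 genes were called (3.7% higher). Without the fold limit Ugp2 also passed, where 13.6% of genes did, and the groups did not overlap for Ppp1r3c, Ugp2 and Pygm, as for 28.3% of genes. Ppp1r3c stood at 152, 94.3, 67.7 and 96.6 CPM in the EX and at 534, 858 and 823 CPM in the CREX libraries, again without overlap. The log2 fold change was 2.85 (SE 0.28, 95% interval 2.21 to 3.48, edgeR adjusted p = 0.00212), a 7.19-fold rise. Averaged over sedentary and trained mice, the CR effect on Ppp1r3c was 2.59 on the log2 scale (SE 0.20, edgeR adjusted p = 1.14e-06). The CR effects with and without training differed by 0.53 (SE 0.39, 95% interval -0.30 to 1.36, edgeR adjusted p = 0.941), which did not pass the test. Slow fibre markers, low in CREX 2 and CREX 3, left a CREX against EX log2 fold change of 2.24 when their score was a covariate.

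The region before the Ppp1r3c start is shown because this gene had the largest log2 fold change among the members in both restriction contrasts of SkM. The 200 bases run from 250 to 51 bases before the RefSeq start, at chr19:36736655-36736854 on the - strand of GRCm38.p6, and the capitals mark 2 motif matches.
Ppp1r3c: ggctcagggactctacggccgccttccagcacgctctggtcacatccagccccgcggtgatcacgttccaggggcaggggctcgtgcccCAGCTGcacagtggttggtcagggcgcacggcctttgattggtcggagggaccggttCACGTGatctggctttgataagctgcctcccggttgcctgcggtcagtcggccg

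Searched on both strands over the 250 bases before the start, the window held the E-box CACGTG from -104 to -99, found in 6.02% of 32851 RefSeq promoter windows, and the MyoD-type E-box CAGCTG from -161 to -156, found in 13.0%. The FOXO site TGTTTAC (in 3.17% of windows), the glucocorticoid receptor half-site TGTTCT (16.1%) and the cyclic AMP response half-site TGACG (17.8%) were not among its letters. These are matches of letters and say nothing of binding. Of the 9 members, 8 had a promoter in the RefSeq table, and CAGCTG was also present before Gys1, Pygm, Ppp1r3a and Ugp2, while CACGTG was found before Ppp1r3c alone.

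Over the 14 SkM libraries, the genes whose log2(CPM + 1) values, centred on their mean, lay closest to those of Ppp1r3c were Fkbp5, Foxo1 and Nfil3. Their mean absolute distance was 0.25, 0.29 and 0.31 log2 units, where Ppp1r3c itself departed from its mean by 1.26 on average. Fkbp5 encodes a chaperone of the glucocorticoid receptor, Foxo1 a forkhead transcription factor and Nfil3 a leucine zipper transcription factor. The libraries share tissue and diet groups, so this likeness is a description of pattern.

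Ugp2 fell in SkM. It stood at 608, 673, 630 and 595 CPM in the control and at 492, 347 and 387 CPM in the CR libraries, with no overlap. The log2 fold change was -0.61 (SE 0.14, 95% interval -0.93 to -0.29, edgeR adjusted p = 0.0195), which is 1.53-fold lower and close to the limit of the call. The call was lost without CR 2 (log2 fold change -0.50), CR 3 (-0.58), control 2 (-0.58) or control 3 (-0.61). Ugp2 also read lower in the trained mice, at 393, 370 and 435 CPM in CREX against 538, 540, 484 and 615 CPM in EX. Those groups did not overlap either, and the log2 fold change of -0.45 (SE 0.12, edgeR adjusted p = 0.0396) was past the p threshold but under the fold limit. The mean CR effect was -0.53 (SE 0.10, edgeR adjusted p = 8.24e-04). The sum of 8 hepatocyte markers was 63.1 to 284 CPM in the CR and 6.81 to 10.1 CPM in the control libraries, and with the hepatocyte score as a covariate the CR against control value of Ugp2 was -0.04 (edgeR adjusted p = 0.938). That score and the CR group cannot be told apart here. Siah2, Cmtm7 and Creld1 followed Ugp2 most closely over the 14 libraries, at mean absolute distances of 0.08 log2 units each, where Ugp2 departed from its mean by 0.27.

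Pygl, the liver phosphorylase, was called higher in SkM under CR, where it is among the lowest members. It stood at 1.104, 0.70, 0.81 and 0.46 CPM in the control libraries, which are 11 to 24 counts, and at 2.59, 1.46 and 3.78 CPM in the CR libraries, which are 37 to 99 counts. The groups did not overlap in the CR contrast, and the log2 fold change was 1.77 (SE 0.36, 95% interval 0.97 to 2.57, edgeR adjusted p = 0.0103). In CREX it stood at 3.66, 0.86 and 1.11 CPM against 2.13, 1.13, 0.50 and 0.70 CPM in EX, with overlap (log2 fold change 0.75, SE 0.62, edgeR adjusted p = 0.434). Averaged over both contrasts the CR effect on Pygl was 1.25 and was called, but the call was lost without CR 3 (1.07) or CREX 1 (0.81). The high libraries, CR 1, CR 3, CREX 1 and EX 1, were the 4 with Adipoq above 5 CPM, where Pygl was 2.13 to 3.78 CPM against 0.46 to 1.46 CPM in the other 10. Without them CR 2 was the only CR library left, and the CR against control log2 fold change was 0.94. With the adipocyte score as a covariate it was 0.97 (edgeR adjusted p = 0.184). The hepatocyte markers, at 63.1 to 284 CPM in the CR and 6.81 to 10.1 CPM in the control libraries, also ended the call as a covariate (1.74, edgeR adjusted p = 0.219). Their score and the CR group cannot be told apart here. Over the 14 libraries Ces1f, Acly and Acp5 followed Pygl most closely, at mean absolute distances of 0.16, 0.16 and 0.17 log2 units, where Pygl departed from its mean by 0.46.

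Pygm, the phosphorylase that muscle uses, stood at 6489, 7674, 7791 and 6686 CPM in control SkM and at 11704, 9027 and 7983 CPM under CR. The CR libraries all lay above the control libraries, but the log2 fold change of 0.43 (SE 0.16, 95% interval 0.07 to 0.78) did not pass (edgeR adjusted p = 0.102). In the trained mice Pygm read 8741, 13425 and 10852 CPM in CREX and 6978, 7167, 7578 and 8677 CPM in EX, also without overlap, with a log2 fold change of 0.53 (SE 0.16, edgeR adjusted p = 0.054). Averaged over both contrasts the CR effect was 0.48 (SE 0.12, edgeR adjusted p = 0.00657), which is 1.40-fold and under the fold limit. DESeq2 put Pygm past the p threshold in both contrasts, at adjusted p = 0.0392 for CR and 0.00821 for CREX. The summed muscle markers themselves were 128766 to 178651 CPM in the CR and 106523 to 118625 CPM in the control libraries, and Pygm was 6.20% to 6.64% of that sum under CR and 5.69% to 6.67% in the controls. In the trained mice the sums overlapped, at 128912 to 165427 CPM in CREX and 116749 to 134975 CPM in EX. There the Pygm shares did not overlap, at 6.78%, 8.12% and 7.68% in CREX and 5.92%, 6.14%, 6.29% and 6.43% in EX. The highest shares, in CREX 2 and CREX 3, came with slow fibre marker sums of 78.0 and 18.6 CPM. That sum was 546 CPM in CREX 1 and 322 to 1683 CPM in EX, and its part in the Pygm shares was not tested.

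None of the other members tested in SkM passed between CR and control. Gys1 read 384 to 474 CPM under CR and 398 to 513 CPM in the controls (log2 fold change -0.05, 95% interval -0.34 to 0.23). Ppp1r3a, the muscle scaffold, read 162 to 222 CPM under CR and 159 to 201 CPM in the controls (log2 fold change 0.10, 95% interval -0.20 to 0.41). Gbe1 read 40.0 to 51.8 CPM and 42.7 to 56.5 CPM (log2 fold change -0.19, 95% interval -0.48 to 0.11), and Pygb 3.20 to 4.35 CPM and 2.85 to 4.10 CPM (log2 fold change 0.12, 95% interval -0.27 to 0.50). Gys2 stood at 0.39 to 0.99 CPM under CR, 0.05 to 0.33 CPM in the controls, 0.09 to 0.33 CPM in EX and 0.08 to 0.42 CPM in CREX. The 4 libraries highest in Gys2, the 3 CR libraries and CREX 1, were also the 4 highest in summed hepatocyte markers. With the hepatocyte score as a covariate, the mean CR effect on Gys2, 1.07 on the log2 scale, turned negative. All 3 CR libraries carry those markers, so that fit cannot fully separate them from the diet.

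**Figure D4:**
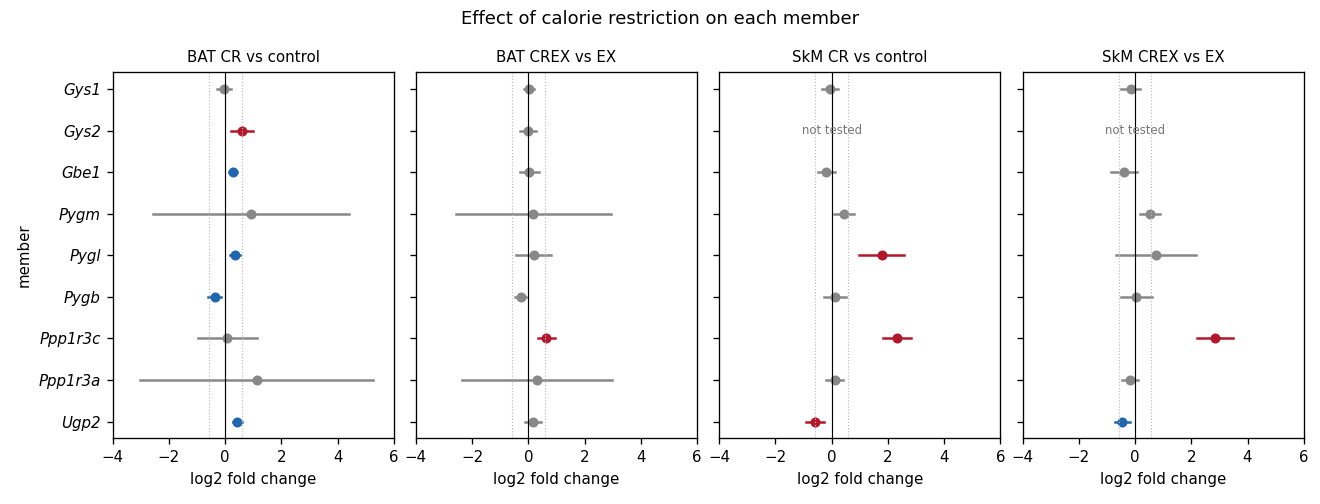
Log2 fold change of each member (points) with its 95% interval (lines) in the 4 contrasts of restricted against unrestricted mice. Red marks members called, blue those past the adjusted p threshold under the fold limit, and the dotted lines stand at the 1.5-fold limit. Ppp1r3c lies at 2.34 and 2.85 in SkM and at 0.09 and 0.64 in BAT.

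In BAT, 1 of 9 members was called between CR and control, the liver synthase Gys2, which was higher, where 10.7% of 13323 genes were called (3.87% higher). The groups did not overlap for Gys2, Ugp2, Pygl, Gbe1 and Pygb, as for 33.4% of all genes. Without the fold limit 5 members were past the p threshold, where 20.9% of genes were, with Ugp2, Pygl and Gbe1 higher and Pygb lower. The members' median log2 fold change was 0.36, against 0.00 over all genes tested. The sum of 6 brown adipocyte markers was 3803 to 4592 CPM in the CR and 5775 to 6868 CPM in the control libraries, and that of 5 endothelial markers 219 to 274 CPM and 299 to 333 CPM. The sum of 5 macrophage markers was 18.7 to 30.8 CPM and 32.8 to 35.9 CPM in the same groups. The part of these shifts in these values was not tested.

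Gys2 stood at 37.8, 63.1 and 48.9 CPM in the 3 control libraries and at 64.1, 81.4, 77.4 and 80.5 CPM in the 4 CR libraries. The CR libraries all lay above the control libraries, and the highest control library (control 2) came close to the lowest CR library (CR 1). The log2 fold change was 0.60 (SE 0.17, 95% interval 0.21 to 0.99, edgeR adjusted p = 0.04), a 1.52-fold rise, barely past the limit. The call was lost without control 1 (0.44), control 3 (0.59), CR 2 (0.56), CR 3 (0.59) or CR 4 (0.57). It was also lost without the filter on low counts (0.61, edgeR adjusted p = 0.096) and with the muscle marker score as a covariate (0.63, edgeR adjusted p = 0.0572). In EX it read 68.5, 70.8, 59.5 and 89.7 CPM and in CREX 76.2, 75.2, 60.03 and 76.7 CPM, with a log2 fold change of -0.01 between them (SE 0.12, edgeR adjusted p = 0.978). The interaction of CR and EX on Gys2 was -0.61 (SE 0.22, edgeR adjusted p = 0.824) and did not pass. Fcor, Slc35a4 and Ppif followed Gys2 most closely over the 15 BAT libraries, at mean absolute distances of 0.12, 0.13 and 0.14 log2 units, where Gys2 departed from its mean by 0.23.

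Ugp2 moved up in BAT, against its fall in SkM. It stood at 116, 102 and 121 CPM in the control and at 151, 144, 158 and 159 CPM in the CR libraries, without overlap. The log2 fold change was 0.44 (SE 0.08, 95% interval 0.27 to 0.61, edgeR adjusted p = 0.00337), which is 1.36-fold and under the fold limit. In the trained mice it read 162, 143, 168 and 139 CPM in CREX and 175, 115, 129 and 128 CPM in EX, with overlap (log2 fold change 0.16, SE 0.13, edgeR adjusted p = 0.469).

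The phosphorylases of BAT went different ways under CR. Pygl stood at 420, 483 and 533 CPM in the control libraries and at 617, 622, 597 and 613 CPM under CR, without overlap (log2 fold change 0.36, SE 0.08, edgeR adjusted p = 0.0126). Pygb stood at 82.0, 85.2 and 75.6 CPM in the controls and at 68.3, 49.9, 65.0 and 66.6 CPM under CR, without overlap (log2 fold change -0.37, SE 0.10, edgeR adjusted p = 0.0272). Both shifts were past the p threshold and under the fold limit. In the trained mice Pygl read 535 to 662 CPM in CREX and 293 to 705 CPM in EX (log2 fold change 0.19, SE 0.27), the 2 lowest EX libraries being EX 2 and EX 3, and Pygb 56.3 to 69.1 CPM and 68.1 to 86.4 CPM (log2 fold change -0.27, SE 0.09, edgeR adjusted p = 0.0967). EX 2 and EX 3 are also 2 of the 3 BAT libraries with over 3000 CPM of muscle markers. Over both contrasts the CR effect on Pygb was -0.33 (SE 0.07, edgeR adjusted p = 0.00302).

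Ppp1r3c, which rose 5.05-fold in SkM, read 95.7, 48.5 and 87.5 CPM in the control and 74.7, 40.0, 107 and 107 CPM in the CR libraries of BAT. The groups overlapped widely, and the log2 fold change was 0.09 (SE 0.42, 95% interval -0.98 to 1.15, edgeR adjusted p = 0.906). In the trained mice it was the member called, where 4.48% of 13251 genes were called (1.86% higher) and 17.7% did not overlap. It read 86.9, 120, 71.7 and 86.5 CPM in CREX and 59.5, 57.2, 60.1 and 57.3 CPM in EX, without overlap and with a narrow EX group. The log2 fold change was 0.64 (SE 0.13, 95% interval 0.34 to 0.93, edgeR adjusted p = 0.0221), a 1.55-fold rise. This call was lost without CREX 1 (0.67), CREX 2 (0.49), CREX 4 (0.66), EX 2 (0.63), EX 3 (0.65) or EX 4 (0.62), by the p or the fold limit. It was also lost in 1 fit to all BAT groups (0.64, edgeR adjusted p = 0.17) and without the libraries above 3000 CPM of muscle markers (0.75, edgeR adjusted p = 0.0613). The brown adipocyte markers summed to 2965 to 4275 CPM in CREX and 5034 to 5931 CPM in EX, and the endothelial markers to 223 to 263 CPM and 265 to 311 CPM, and their part in this value was not tested. The interaction of CR and EX was 0.55 (SE 0.42, edgeR adjusted p = 0.912). Hk2, which encodes a hexokinase, Flcn and Chka followed Ppp1r3c most closely in BAT, at mean absolute distances of 0.19, 0.22 and 0.23 log2 units, where Ppp1r3c departed from its mean by 0.38.

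Gbe1 read 201, 202 and 210 CPM in the control and 258, 236, 259 and 238 CPM in the CR libraries of BAT, without overlap (log2 fold change 0.28, SE 0.06, edgeR adjusted p = 0.0131, under the fold limit). Between CREX and EX its log2 fold change was 0.03 (SE 0.15). Gys1 did not pass in BAT, at 171 to 253 CPM under CR and 201 to 213 CPM in the controls (log2 fold change -0.03, 95% interval -0.29 to 0.22). Pygm (log2 fold change 0.91, 95% interval -2.57 to 4.39) and Ppp1r3a (1.12, 95% interval -3.02 to 5.27) could not be placed, and with the muscle marker score as a covariate the values were -0.01 and -0.19.

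**Figure D5:**
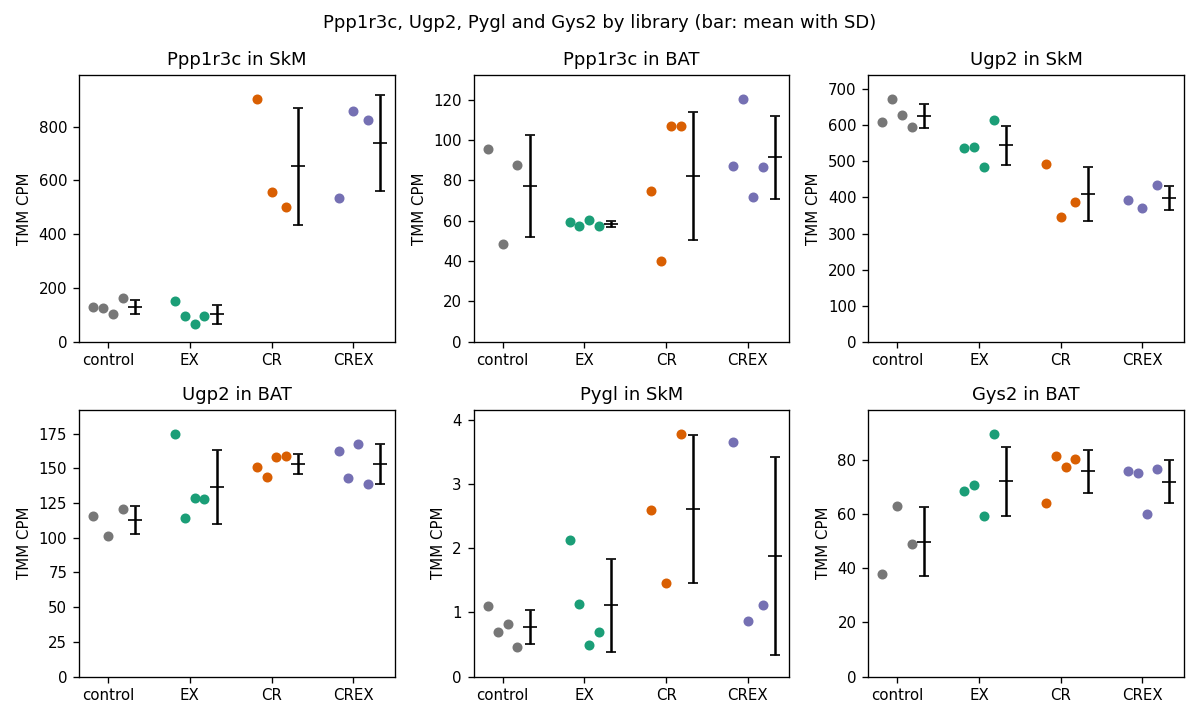
CPM of Ppp1r3c and Ugp2 in both tissues, of Pygl in SkM and of Gys2 in BAT (linear axes from 0), by group, with 1 point per library and the mean with its SD as a black bar. Ppp1r3c in SkM lies at 500 to 902 CPM in the CR and CREX libraries and at 67.7 to 163 CPM in the others.

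The CR effect itself was tested between the tissues in 1 fit to the CR and control groups together, and 3 of 9 members were called, where 6.29% of 14369 genes were. The effect on Ppp1r3c was higher in SkM by 2.23 on the log2 scale (SE 0.49, edgeR adjusted p = 0.0183). The effect on Ugp2 was lower in SkM by a difference of -1.06 (SE 0.18, edgeR adjusted p = 0.00209). For Pygl the difference was 1.41 (SE 0.35, edgeR adjusted p = 0.0245), and it lost its call without SkM CR 3 (1.02), SkM control 2 (1.37), BAT control 2 (1.37) or BAT control 3 (1.33), and with the replicate block (1.26, edgeR adjusted p = 0.0778). For Gbe1 (-0.47), Gys2 (1.48) and Pygb (0.48) the adjusted p by edgeR was 0.0821, 0.126 and 0.16.

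Training called no member in either tissue. Between EX and control 0 of 9 members were called in BAT, where 0% of 13407 genes were (7.25% at an unadjusted p under 0.05), and 0 of 8 in SkM, where 0.0775% of 12907 genes were (6.85% at an unadjusted p under 0.05). Between CREX and CR no member was called in BAT (0.00763% of 13112 genes, and 7.63% at an unadjusted p under 0.05) or in SkM (0% of 13068 genes, and 3.65%). By DESeq2 no member was called in these 4 contrasts either, and at an unadjusted p under 0.05 edgeR gave Gys2 in BAT EX against control (log2 fold change 0.54, 95% interval 0.07 to 1.01), Ugp2 in SkM EX against control (-0.21, 95% interval -0.41 to -0.01) and Gys2 in SkM CREX against CR (-1.71, 95% interval -3.16 to -0.26).

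In BAT the highest values of Pygm were in the trained groups. Pygm read 63.2, 193, 155 and 3.20 CPM in EX and 45.1, 61.0, 272 and 93.1 CPM in CREX, against 33.9, 5.27 and 2.81 CPM in the controls and 4.25, 5.11, 63.0 and 31.9 CPM under CR. The mean effect of training on Pygm was 2.54 on the log2 scale (SE 0.95, edgeR adjusted p = 0.35) and that on Ppp1r3a was 2.90 (SE 1.02, edgeR adjusted p = 0.333). The muscle marker sum was 6.48 to 3706 CPM in EX and 954 to 5836 CPM in CREX, against 3.22 to 631 CPM in the controls and 18.4 to 1344 CPM under CR. With the muscle marker score as a covariate the training effects on Pygm and Ppp1r3a were 0.32 and 0.29.

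Of 21 other glycogen genes in the table, 4 were called between CR and control in BAT (2 higher, 2 lower), beside 10.7% of all genes. Ppp1r3b (GL, the scaffold named for liver) rose from 160, 135 and 151 CPM in the controls to 248, 202, 300 and 297 CPM under CR (log2 fold change 0.82, SE 0.14, edgeR adjusted p = 0.00388), without overlap. In the trained mice it was not called, at 189, 350, 258 and 247 CPM in CREX and 276, 163, 176 and 210 CPM in EX, with overlap. Pgm2l1, a glucose 1,6-bisphosphate synthase, rose from 2.697 to 4.37 CPM to 4.41 to 7.76 CPM (0.84, edgeR adjusted p = 0.0212). Ppp1r3d, another scaffold of the family, fell from 22.9 to 31.6 CPM to 7.12 to 17.3 CPM (-1.35, edgeR adjusted p = 0.0426), and Stbd1, which tethers glycogen to membranes, fell from 4.63 to 5.80 CPM to 2.13 to 4.16 CPM (-0.78, edgeR adjusted p = 0.0278). Between CREX and EX in BAT Stbd1 was the 1 of 21 called, beside 4.48% of all genes, at 3.39, 3.28, 2.72 and 2.96 CPM against 5.45, 4.02, 6.64 and 3.98 CPM (-0.71, edgeR adjusted p = 0.0471). In the mean CR effect of BAT 4 of 21 were called, where 11.8% of 13922 genes were, Ppp1r3g (-1.39, edgeR adjusted p = 0.0391) beside Pgm2l1, Ppp1r3d and Stbd1, but not Ppp1r3b. Ppp1r3g was low and uneven, at 0.44, 4.83 and 2.64 CPM in the controls (10 to 120 counts). It read 0.13 to 1.28 CPM under CR, with overlap, 0.53 to 0.88 CPM in EX and 0.25 to 0.55 CPM in CREX. Between the control tissues 17 of 21 were called, 12 higher and 5 lower in SkM, beside 60% of all genes.

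In SkM Stbd1 went the other way. It was the 1 of 20 tested that was called between CR and control, beside 9.6% of all genes, at 30.7, 23.4 and 21.3 CPM under CR against 11.3, 18.0, 13.8 and 17.0 CPM in the controls (log2 fold change 0.75, SE 0.18, edgeR adjusted p = 0.0193). The difference of its CR effect between the tissues was 1.51 (SE 0.30, edgeR adjusted p = 0.00747). Between CREX and EX 0 of 20 were called in SkM, beside 8.87% of all genes.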

How the data were processed

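The authors trimmed the reads with trim-galore, aligned them with STAR (genome mm10) and estimated gene counts with RSEM. The submitters' processing notes give STAR 2.7.10a and RSEM 1.2.28, and the annotation is not given in the sources used here. The deposited values are RSEM expected counts per gene symbol, not normalized, and they were rounded to whole numbers. Libraries were grouped by their titles, and every column of the table was used. The members and gene lists were chosen with earlier results of these data known.

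Each contrast was fitted across all genes with edgeR 4.0.16 in R 4.3.3 (filterByExpr, TMM, robust quasi-likelihood test) on the libraries of its own groups. The mean effects and the interaction came from 1 fit over the groups of a tissue, and the tissue difference from 1 fit over control and CR libraries. A gene was called where its p, adjusted by Benjamini-Hochberg over all genes tested, was less than 0.05 and its change more than 1.5-fold. The standard error is the log2 fold change divided by the square root of F. Alternatives were DESeq2 1.42.0, RLE size factors, no filter, no fold limit, 1 fit over all groups, the replicate block, marker score covariates and each library left out. The tests were first run on simulated counts. Counting intervals and floors cover counting error only, and reads without molecular identifiers are not independent molecules.

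Exon lengths, positions and coding sequences are from GENCODE vM21 (GRCm38, the build of mm10), and promoters from RefSeq (GRCm38.p6). Named genes are all members, other glycogen genes called in a contrast (at most 10, smallest p first), and the 3 genes most like each called member by mean absolute distance of centred log2(CPM + 1). A result for 1 of the other glycogen genes is not reported here.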

Additional observations from a re-analysis of the deposited data

Results flagged for a closer look

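The lowest CREX library of BAT stood apart in Gys2. CREX 3 read 60.03 CPM where the other 3 CREX libraries read 75.2 to 76.7 CPM, a gap of 0.907 of the group's range, above Dixon's critical value for 4 libraries, which chance passes in about 1 group of 20. The check covered all 9 members in every group of 4 libraries, so a single flag is not unusual. CREX 3 is also the BAT library with the most muscle markers (5836 CPM), and the part of that RNA in the Gys2 value was not tested.

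The CR effect differed between SkM and BAT for 3 members in the test of the difference itself. On the log2 scale the difference was 2.23 for Ppp1r3c, 1.41 for Pygl and -1.06 for Ugp2. With the replicate block Pygl was no longer called (1.26, edgeR adjusted p = 0.0778).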

How the results depend on the processing

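The number of members called between CR and control in BAT was 1, and it became 5 without the fold limit and 0 without the filter on low counts or with the muscle marker score as a covariate. Between CREX and EX in BAT it went from 1 to 0 in 1 fit over all groups and, chosen after seeing the data, without the libraries above 3000 CPM of muscle markers. Between CR and control in SkM it went from 3 to 1 with the adipocyte or the hepatocyte score as a covariate, and Ppp1r3c was the member left. Both scores were chosen after seeing the data, and the hepatocyte score cannot be told apart from the CR group in that contrast. Between CREX and EX in SkM the count went from 1 to 2 without the fold limit, with the adipocyte score or without the libraries with Adipoq above 5 CPM, and to 3 with the hepatocyte score. For the mean CR effect in BAT the count went from 0 to 3 without the fold limit, where 33.4% of 13922 genes passed. In SkM it was 2, Ppp1r3c and Pygl, where 14.1% of 13610 genes were called. That count became 4 without the fold limit, where 33.5% of genes passed, and 1 without the filter or with the adipocyte score. With each library left out in turn the counts ran from 0 to 1 in both CR contrasts of BAT, from 2 to 4 between CR and control, 1 to 3 between CREX and EX and 1 to 3 for the mean CR effect in SkM, and from 2 to 3 for the difference between tissues. The SkM CREX against EX count reached 3 without CREX 1, and the mean CR count fell to 1 without CR 3 or CREX 1. In all, 29 of 295 alternative counts moved by more than 1.5 times.

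The direction turned for Gys2 in SkM between CREX and CR with the slow fibre score (0.085 in place of -1.71) and for its mean CR effect with the hepatocyte score (-0.61 in place of 1.07). It also turned for Pygm and Ppp1r3a in BAT with the muscle marker score, to -0.0060 and -0.19 between CR and control and to -0.19 and -0.046 between CREX and EX. With libraries left out, Pygm ran from -0.021 to 2.69 between CR and control, and Pygm and Ppp1r3a from -0.65 to 0.67 and from -0.58 to 0.65 between CREX and EX. The causes were not tested. These are 11 of 829 alternative values, for the 52 log2 fold changes followed in full. Of 89 further pairs of a member and a contrast, with an unadjusted p of 0.05 or more, 32 kept their sign under every alternative, and 4 passed an adjusted p of 0.05 under some alternative (Gbe1 between CREX and EX in SkM, and Gbe1 and Ppp1r3c in BAT and Gys1 in SkM for the mean CR effect). Ppp1r3c between CR and control in BAT changed sign under 5 of 14 alternatives.

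The labels do not say whether the replicate numbers pair the mice. Of 27 same-numbered pairs of libraries, 9 deviated together with a correlation above 0.1 (range -0.40 to 0.52), which does not settle it. With the numbers as a replicate block, the count of members called was 1 for CR and 1 for CREX in BAT, 3 and 1 in SkM, and 2 for the tissue difference, where Pygl lost its call (adjusted p = 0.0778 by edgeR). With a pseudocount of 0.1 the 3 genes most like each member kept 2 for Gys2 in BAT and for Ppp1r3c in SkM, 1 for Ppp1r3c in BAT and Ugp2 in SkM, and 0 for Pygl in SkM. Depth limits Gys2 and Pygl in SkM and Ppp1r3a in BAT, where libraries held few counts or none.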
